A study of Homo sapiens with 4 samples.

Results

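Zinc finger genes with the symbols ZBTB, ZSCAN and ZKSCAN were examined in a map of N6-methyladenosine (m6A), the methylated adenosine of messenger RNA, from human embryonic stem cells. Members were the protein-coding genes whose symbol is 1 of these 3 stems followed by digits and at most 1 letter, 69 of 20052 protein-coding genes in the RefSeq table used. They comprised 41 ZBTB genes, called the BTB group here, and 28 SCAN genes, 21 of them ZSCAN and 7 ZKSCAN. ZBTB8OS, which encodes an archease and not a BTB protein, was left out and held no region. A region was given to the gene of the transcript in its annotation, or to the gene with the nearest start site where no transcript matched. By this rule 73 of the 9900 deposited m6A regions belonged to members, 39 to BTB and 34 to SCAN genes.

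The cells were the established human embryonic stem cell line H1, of wild-type genotype and with no treatment other than the antibody step of the assay. The deposited set of regions is labelled as from primed cells. Total RNA gave 4 libraries, 2 of input and 2 recovered with an m6A antibody. The files held a single intersected set of regions on hg38, with no height, score or level per library, so there is no replicate error to set beside any value, the depth is unknown, and neither the level of a member's RNA nor the stem cell markers of the line could be checked. Absence of a region therefore says nothing on whether a transcript carries m6A. All intervals below are 95% exact binomial intervals unless another kind is named, they treat genes or regions as independent, and they cover counting error only. The groups are described without a test, since genes are not replicates of a condition.

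BTB zinc finger proteins carry an N-terminal BTB domain, which pairs the proteins and recruits corepressors, and C-terminal C2H2 zinc fingers, which bind DNA. SCAN zinc finger proteins carry a SCAN domain, which joins SCAN proteins to each other, before their fingers, and most ZKSCAN proteins also hold a KRAB domain, which recruits the corepressor TRIM28. In many C2H2 genes the whole array of fingers is encoded in the last coding exon. m6A is set by a nuclear methyltransferase complex within a short consensus sequence and is known to be frequent in long internal exons and in last exons around the stop codon.

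Most members held a region. At least 1 region of any kind was assigned to 50 of the 69 members (72.5%), against 28.4% of all protein-coding genes. An exonic region, one whose centre lay in a coding exon, a UTR or a non-coding exon, was found in 37 members (53.6%, interval 41.2 to 65.7%), against 12.9% of all protein-coding genes. The other 13 members with a region had it centred in an intron, at a promoter or outside the gene. ZNF genes, the much larger class of C2H2 genes, held an exonic region in 300 of 509 cases (58.9%, 54.5 to 63.2%), so the members' share lay near that of ZNF genes. Gene body length was similar, with a median of 23530 bp in members, 23605 bp in ZNF genes and 24098 bp in all protein-coding genes.

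**Figure D1:**
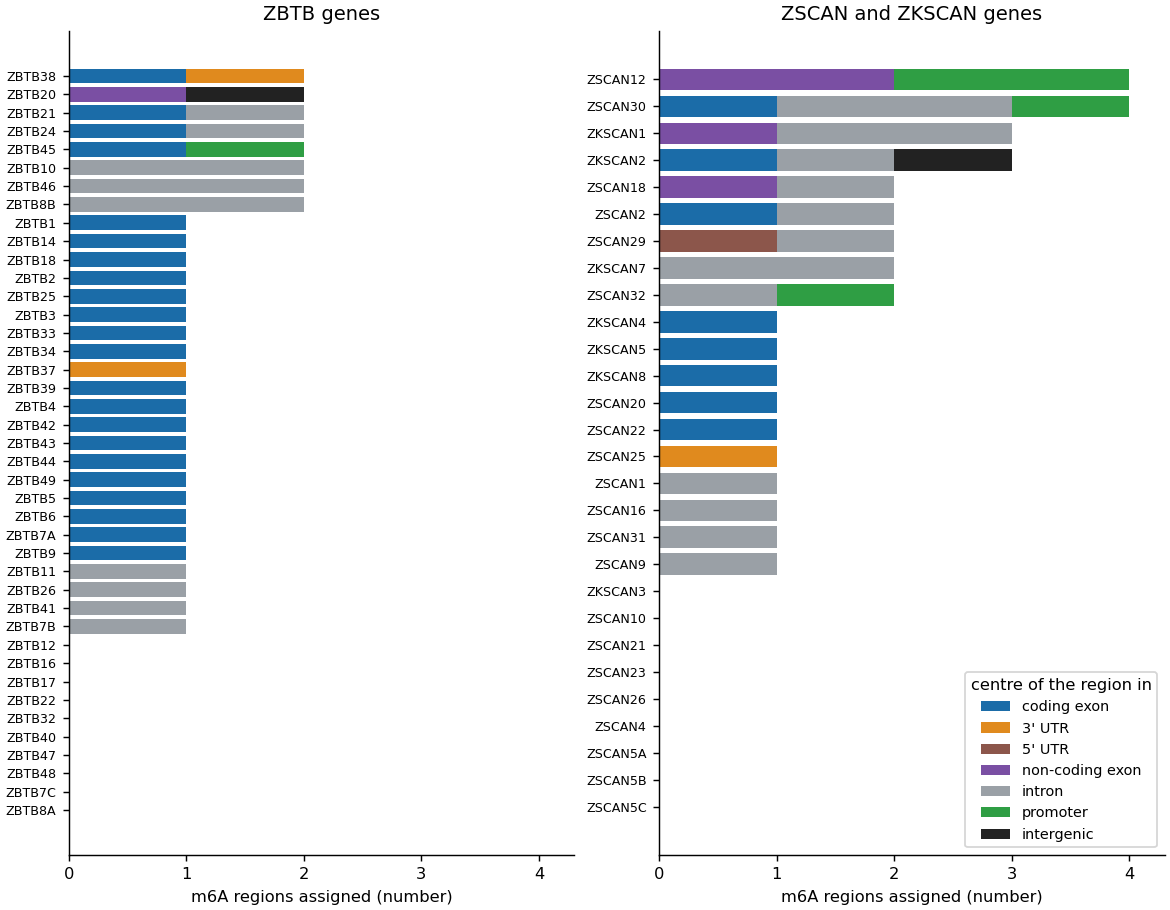
Number of m6A regions assigned to each of the 41 ZBTB genes (left) and 28 ZSCAN and ZKSCAN genes (right), coloured by the feature that holds the centre of each region. ZBTB genes held at most 2 regions, most of them in coding exons, and ZSCAN12 and ZSCAN30 held 4 each.

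BTB genes held an exonic region somewhat more often than SCAN genes, but the interval of the difference included 0. Of the 41 BTB genes 24 held one (58.5%, 42.1 to 73.7%), and of the 28 SCAN genes 13 did (46.4%, 27.5 to 66.1%). The difference, SCAN minus BTB, was -12.1 percentage points (95% Newcombe interval -33.9 to 11.2). With only regions of at least 1 kb counted, the shares were 18 of 41 and 13 of 28, and the difference turned to 2.53 points (Newcombe interval -20.1 to 25.1). With the gene named by the nearest start site, 8 of 28 SCAN genes (28.6%) and 20 of 41 BTB genes (48.8%) were counted. Within SCAN, 5 of the 7 ZKSCAN genes (71.4%, 29.0 to 96.3%) and 8 of the 21 ZSCAN genes (38.1%, 18.1 to 61.6%) held an exonic region. The ZKSCAN count is small and its interval overlaps those of ZBTB and ZSCAN genes. Counting regions of any kind, 31 BTB genes (75.6%) and 19 SCAN genes (67.9%) had one. SCAN genes with a region held more of them, 1.79 per gene against 1.26 in BTB genes, and 1.51 in all protein-coding genes. The SCAN value includes promoter regions of ZSCAN30 and ZSCAN32 that lay outside those genes, and an intergenic region of ZKSCAN2. The BTB value includes an intergenic region of ZBTB20. ZSCAN12 and ZSCAN30 alone held 4 regions each, and no interval was made for these ratios.

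**Figure D2:**
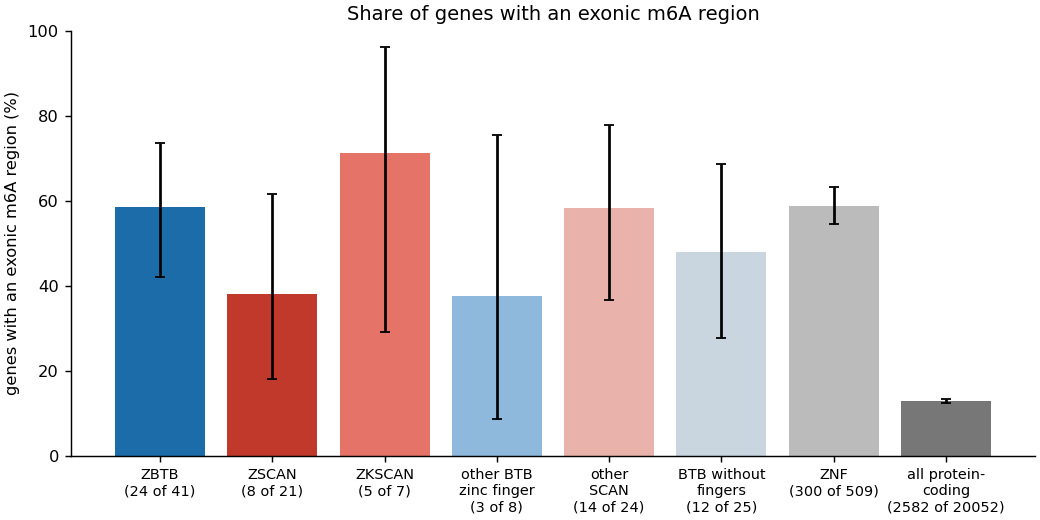
Share of genes with at least 1 exonic m6A region, in percent; bars start at 0 and error bars are 95% exact binomial intervals, with the counts under each bar. The ZBTB (58.5%), ZSCAN (38.1%), ZKSCAN (71.4%) and ZNF (58.9%) shares all stand above the 12.9% of all protein-coding genes.

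Genes of the same domain classes that carry other symbols were counted the same way, beside the 12.9% of all protein-coding genes. Of 24 SCAN genes with ZNF or other symbols, 14 held an exonic region (58.3%, 36.6 to 77.9%), among them ZNF24, ZNF202, ZNF263, ZNF274 and ZNF445. The remaining 9 of these 14 were ZNF18, ZNF165, ZNF174, ZNF213, ZNF287, ZNF394, ZNF483, ZNF496 and ZNF500. Of 8 BTB zinc finger genes with other symbols, 3 did (37.5%, 8.52 to 75.5%), namely GZF1, HIC2 and PATZ1. BCL6, the germinal centre repressor, had a region but none centred in an exon. Of 25 genes for BTB proteins without C2H2 fingers, such as the KLHL ubiquitin ligase adaptors and the BACH factors, 12 held one (48.0%, 27.8 to 68.7%). These intervals are wide and overlap those of the members, and that of the BTB zinc finger list includes 12.9%.

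Protein-coding genes were cut into 3 equal classes by gene body length. Among the shortest (up to 12484 bp), 8 of 12 BTB genes held an exonic region (66.7%, 34.9 to 90.1%) and 0 of 6 SCAN genes did (upper bound 45.9%), against 8.59% of all genes of that size. The intervals of BTB and SCAN overlap, and the SCAN interval includes 8.59%. The 8 were ZBTB3, ZBTB6, ZBTB9, ZBTB14, ZBTB18, ZBTB33, ZBTB39 and ZBTB42, compact genes with 1 to 4 exons in the annotated transcript. The 6 short SCAN genes were ZSCAN5B, ZSCAN5C, ZSCAN9, ZSCAN10, ZSCAN16 and ZSCAN26. ZSCAN9 and ZSCAN16 each held a region centred in an intron, which the centre rule does not count as exonic. That of ZSCAN16 covered 45.8% of its gene body and began near the 5' boundary. Among genes of middle length the shares were 12 of 19 BTB genes (63.2%) and 12 of 20 SCAN genes (60.0%), against 13.4% of all genes. Among the longest, with bodies of at least 46033 bp, 4 of 10 BTB and 1 of 2 SCAN genes held one, against 16.6%.

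The regions of the BTB genes were centred mainly in coding exons. Of their 39 regions 22 were centred in coding exons, 12 in introns, 2 in 3' UTRs, 1 in a non-coding exon, 1 at a promoter and 1 between genes. Coding exons held the centre of 274 of 580 regions in ZNF genes and of 1909 of 8616 in all protein-coding genes. Whether BTB genes differ from ZNF genes in this was not tested. The methyl-CpG binding factors were the only role class of the lists with every member hit. ZBTB33, also known as Kaiso, which binds methylated CpG pairs and recruits the NCOR corepressor, was hit in exon 3 of 3, at chromosome X, positions 120253506 to 120255322 (1817 bp). ZBTB4, a related methyl-CpG binding repressor, was hit in exon 4 of 4, at chromosome 17, positions 7462551 to 7463487 (937 bp). ZBTB38, the third such factor, held 2, at chromosome 3, positions 141442882 to 141444103 (1222 bp, coding) and 141446276 to 141447642 (1367 bp, 3' UTR). Both lay in exon 8 of 8, at 95% and 97.7% of the gene body counted from its 5' end, so ZBTB38 was the only BTB gene with 2 exonic regions. The class has just 3 genes, and its interval runs from 29.2 to 100%, which includes the 58.5% of all BTB genes. The share over all protein-coding genes was 12.9%. The lists were chosen with earlier results of these data known, so a fully hit class gives no support for a link to its role.

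BTB factors known from blood cell development were hit in part. Of 9 such genes 4 held an exonic region (44.4%, 13.7 to 78.8%), against 58.5% of all BTB genes and 12.9% of all protein-coding genes. The interval includes the share of all BTB genes, so the list is not set apart from its group. ZBTB7A, or LRF, a repressor of fetal globin genes, was hit in exon 2 of 3, at chromosome 19, positions 4054128 to 4055239 (1112 bp). ZBTB1, needed for lymphocyte development, held one of 1970 bp at chromosome 14, positions 64521711 to 64523680, in exon 2 of 3. ZBTB24, mutated in an inherited immunodeficiency with unstable centromeres, held 948 bp in exon 2 of 7 (chromosome 6, positions 109481187 to 109482134) and 847 bp in intron 3 of 6. ZBTB20, a repressor active in liver and hippocampus, held 1044 bp in exon 7 of 7 of a non-coding transcript, at 97.1% of a gene body of 832789 bp. A further region named after ZBTB20 was intergenic and far outside the gene, with its centre at -208535 bp from the start site. ZBTB7B, or ThPOK, the helper T cell factor, had 1 region of 2049 bp in intron 4 of 4, and ZBTB46, a marker of classical dendritic cells, had 2 in introns. ZBTB16 (PLZF), ZBTB17 (MIZ1, a partner of MYC) and ZBTB32 held none.

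Other BTB genes with an exonic region ranged from single-exon genes to genes of 8 exons. ZBTB18, a repressor needed for the development of cortical neurons, held 1629 bp at chromosome 1, positions 244053872 to 244055500, in its annotated single exon, and ZBTB42 held 902 bp in a single exon as well. The neighbours ZBTB43 and ZBTB34 on chromosome 9 each held a region in exon 2 of 2, of 1850 and 1301 bp. ZBTB2, ZBTB3, ZBTB5, ZBTB6, ZBTB9, ZBTB14, ZBTB25 and ZBTB39 were likewise hit in the last exon, with widths of 1356, 1430, 2170, 1394, 1133, 1331, 1141 and 2206 bp. ZBTB21 had the widest exonic region of the group, 3368 bp in exon 2 of 3, beside 6971 bp in an intron. ZBTB49 had the narrowest, 792 bp in exon 3 of 8. ZBTB44 held 882 bp in exon 2 of 8, ZBTB37 held 954 bp in a 3' UTR, and ZBTB45 held 1242 bp in exon 2 of 3.

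SCAN regions were centred in introns most often, as were those of all protein-coding genes, and 14 of them were exonic. Of 34 regions 15 were centred in introns, 8 in coding exons, 4 in non-coding exons, 4 at promoters, 1 in a 3' UTR, 1 in a 5' UTR and 1 between genes. In all protein-coding genes, 4588 of 8616 regions were centred in introns and 1909 in coding exons. Among the ZKSCAN genes, ZKSCAN2 held 1890 bp at chromosome 16, positions 25239280 to 25241169, in exon 7 of 7, together with an intronic region and an intergenic one at -26420 bp from its start site. ZKSCAN5 held 1101 bp at chromosome 7, positions 99531404 to 99532504, and ZKSCAN8 held 1587 bp at chromosome 6, positions 28152327 to 28153913, both in exon 7 of 7. ZKSCAN4 held 1074 bp in exon 5 of 5. ZKSCAN1, whose gene is known for an abundant circular RNA, held 1601 bp in exon 7 of 7 of a non-coding transcript and 2 intronic regions. ZKSCAN7 held only regions centred in introns, and ZKSCAN3, a repressor of autophagy genes, held none.

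Of the ZSCAN genes, ZSCAN2, ZSCAN20, ZSCAN22 and ZSCAN30 were hit in a coding exon. ZSCAN20 held the widest of these, 2275 bp at chromosome 1, positions 33493353 to 33495627, in exon 8 of 8. ZSCAN22 held 1687 bp and ZSCAN2 held 1570 bp, each in exon 3 of 3, and ZSCAN30 held 1015 bp in exon 2 of 2. ZSCAN12 and ZSCAN30 had the most regions of any member, 4 each, though a promoter region of ZSCAN30 lay outside the gene. Those of ZSCAN12 ran along the gene on chromosome 6, in non-coding exons 4 and 6 of 6 and at 2 promoters, at 4.29, 40.8, 81.2 and 91.4% of the gene body. ZSCAN18 was hit in exon 2 of 2 of a non-coding transcript, ZSCAN25 in a 3' UTR and ZSCAN29 in a 5' UTR.

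All coding-exon regions of SCAN genes fell in the last exon, and those of BTB genes did so less uniformly. In transcripts of 2 or more exons, 8 of 8 SCAN regions were in the last exon (100%, 63.1 to 100%) and 13 of 20 BTB regions were (65.0%, 40.8 to 84.6%), against 57.2% of coding-exon regions in all protein-coding genes and 89.3% (242 of 271) in ZNF genes. The intervals of SCAN and BTB overlap. The 7 BTB regions outside the last exon lay in exon 2 of ZBTB1, ZBTB7A, ZBTB21, ZBTB24, ZBTB44 and ZBTB45 and in exon 3 of ZBTB49. Among the genes with other symbols, SCAN genes had 12 of 13 coding-exon regions in the last exon (92.3%, 64.0 to 99.8%), the exception being ZNF500 in exon 6 of 7. BTB zinc finger genes had 1 of 3 (33.3%, 0.84 to 90.6%, which overlaps the SCAN interval), with HIC2 in exon 3 of 3 and GZF1 and PATZ1 in exon 1 of 5. The hit BTB transcripts had fewer exons, a median of 3 against 6 for SCAN transcripts. Exon lengths were not in the files.

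**Figure D3:**
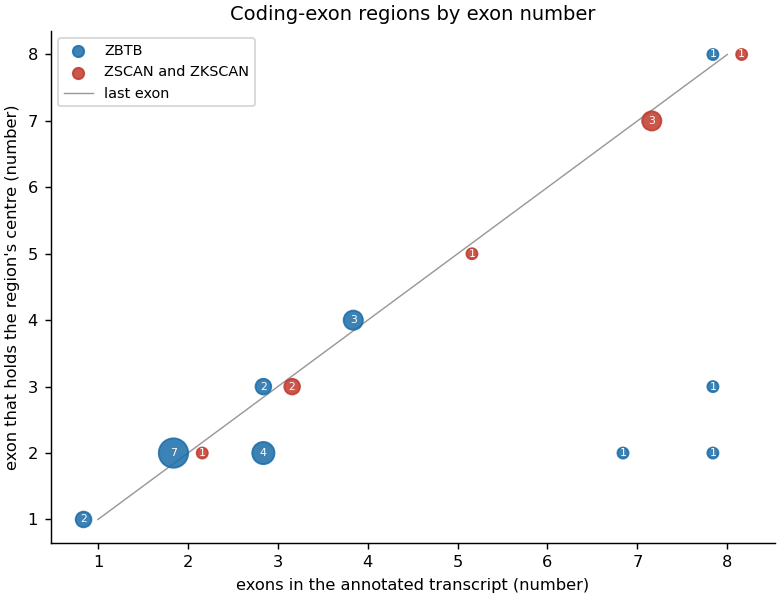
Exon that holds the centre of each coding-exon region against the number of exons in its annotated transcript; the number in each point counts regions, points of the groups are shifted sideways for clarity, and the grey line marks the last exon. All 8 ZSCAN and ZKSCAN regions lie at the line, and 7 ZBTB regions lie below it, in exon 2 or 3.

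A last exon of the named transcript was not always the 3' end of the gene. Strand was known for 63 of 69 members, and the centre of each region was placed along the gene body, from 0% at the 5' boundary to 100% at the 3' boundary. Exonic regions of SCAN genes had a median position of 76.8%, and 8 of 14 (57.1%) lay at 75% or beyond, against 57.2% of exonic regions in all protein-coding genes. In BTB genes the median was 68.9% and 10 of 25 lay there (40%). The region of ZBTB25 was in exon 4 of 4 but at 31.3% of the body, that of ZSCAN18 in exon 2 of 2 at 29.0%, and the 3' UTR region of ZSCAN25 at 10.8% of a body of 121090 bp. Exonic regions late in the gene body by percent included those of ZBTB38 and ZBTB20, given above, ZBTB2 at 93.3%, ZSCAN30 at 92.8% and ZKSCAN5 at 90.9%. A late percent is not always a short distance, since the ZBTB20 region was centred 24226 bp from the 3' boundary of a body of 832789 bp.

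**Figure D4:**
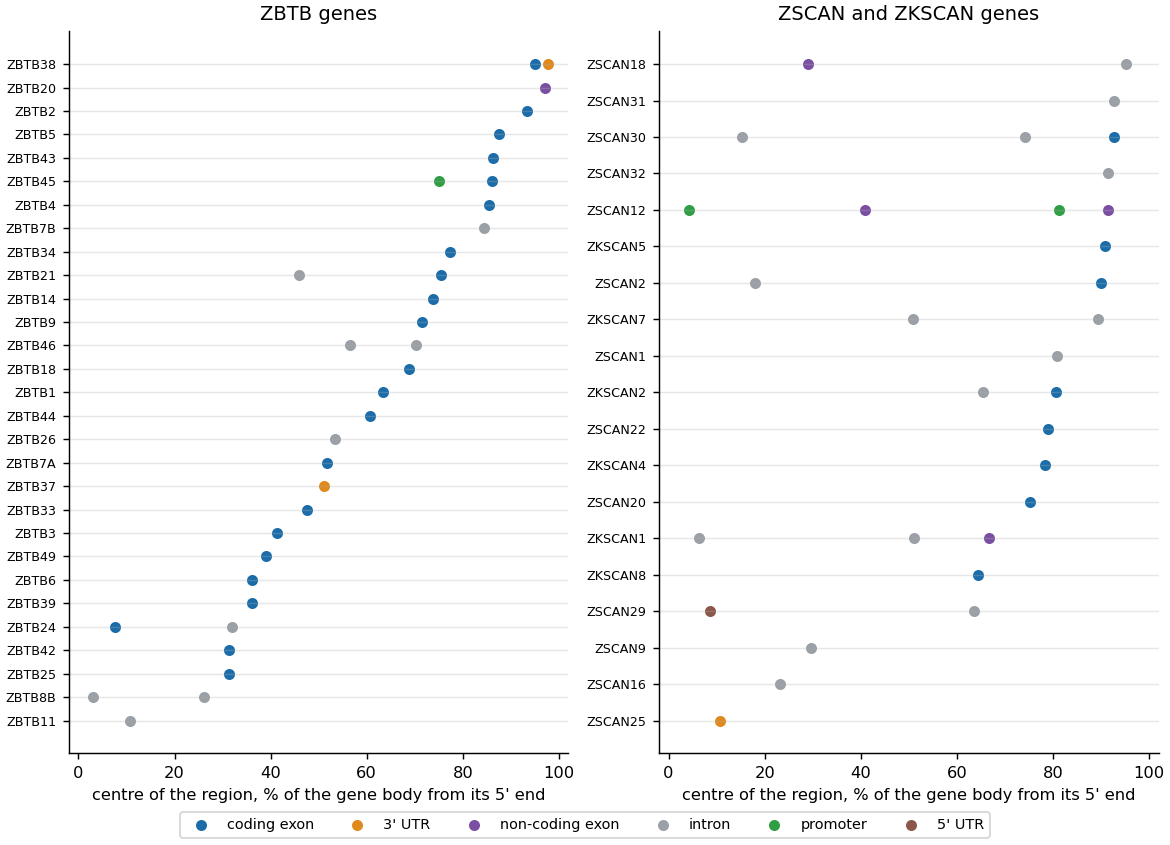
Centre of each region as a percent of the gene body from its 5' end, 1 line per gene and coloured by feature, for members of known strand and regions centred inside the gene. The medians of exonic regions are 68.9% for ZBTB and 76.8% for ZSCAN and ZKSCAN genes.

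Intronic regions of SCAN genes were mostly annotated to the last intron. Among introns of transcripts with 2 or more, 10 of 14 SCAN regions (71.4%, 41.9 to 91.6%) and 3 of 10 BTB regions (30.0%, 6.67 to 65.2%) lay in the last one, against 21.0% in all protein-coding genes. In ZNF genes 69 of 176 did (39.2%, 31.9 to 46.8%). The SCAN interval overlaps those of BTB and ZNF genes. The annotated transcripts had a median of 4.5 introns in either group, 4 in ZNF genes and 11 in all protein-coding genes. In SCAN genes with other symbols 1 of 8 lay in the last intron (12.5%), with a median of 4 introns. By position in the gene body, 5 of 15 intronic SCAN regions (33.3%) were at 75% or beyond, close to the 31.3% of all protein-coding genes. These 5 were in ZSCAN18 (centre 1642 bp from the 3' boundary), ZSCAN32 (1634 bp), ZSCAN31 (2283 bp), ZKSCAN7 (3013 bp) and ZSCAN1 (4303 bp). A label of intron follows the transcript that was named, and whether another transcript has an exon there was not analysed here.

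**Figure D5:**
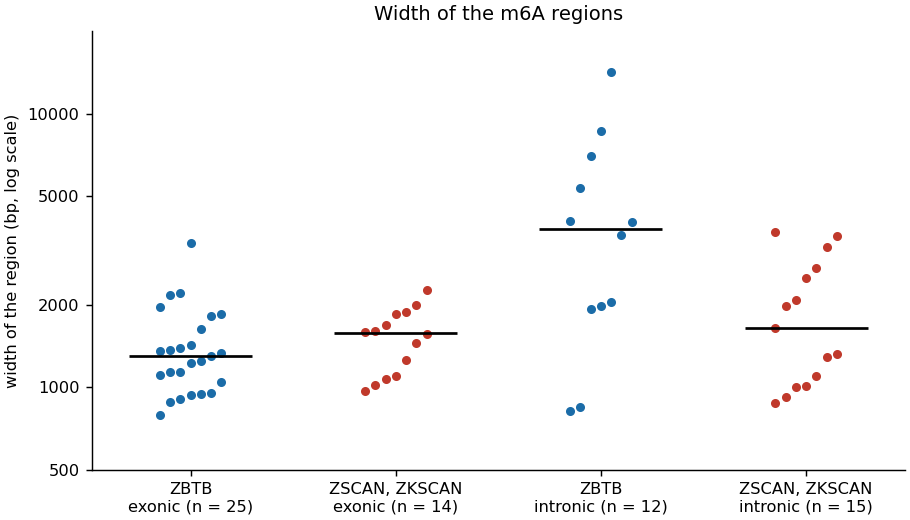
Width of the exonic and intronic regions of each group in bp on a log scale, 1 point per region, with the median as a line. Intronic ZBTB regions reach 14153 bp, and no exonic region of a member exceeds 3368 bp.

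Exonic regions were of like width in both groups. The median was 1301 bp in BTB genes (range 792 to 3368 bp, 25 regions) and 1578 bp in SCAN genes (969 to 2275 bp, 14 regions), against 1294 bp in all protein-coding genes, and the 95% order-statistic intervals of the medians, 1112 to 1430 bp and 1074 to 1890 bp, overlapped. Of the 39 exonic regions 5 were over 2 kb (12.8%), against 20.1% in all protein-coding genes and 33.4% in ZNF genes. In introns the BTB regions had a median width of 3797 bp and 8 of 12 were over 2 kb, and the SCAN regions had a median of 1643 bp with 6 of 15 over 2 kb, against a median of 2186 bp in all protein-coding genes. The widest was the region of 14153 bp in intron 1 of 5 of ZBTB10, followed by those of ZBTB26 (8638 bp), ZBTB21 (6971 bp) and ZBTB8B (5328 bp). A repeat was annotated at the centre of 13 of the 27 intronic regions of members (48.1%) and an Alu element at 6 (22.2%), against 53.5% and 12.8% of the 4588 intronic regions of all protein-coding genes. No interval was made for the shares over 2 kb, the intronic medians or the repeat shares. They rest on few regions, so these differences may lie within counting error.

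By their centres, 4 of 34 SCAN regions and 1 of 39 BTB regions were at promoters, against 272 of 8616 in all protein-coding genes. Whether these shares differ was not tested, and the promoter regions of ZSCAN30 and ZSCAN32 lay outside those genes. Few regions covered a whole start site window, and sequences are given for the 2 members in which a region did. Such a window, from 250 bases before to 50 bases after an annotated start, was inside a region for 3 of 107 windows of members (2.80%), against 2.64% of those of all protein-coding genes. They belonged to ZBTB45, a BTB gene, for 2 overlapping windows, and to ZSCAN29. The bases before the start are shown 5' to 3' on the strand of the gene, from RefSeq on GRCh38.p14, for ZBTB45 at chr19:58519811-58520060 (minus strand) and for ZSCAN29 at chr15:43370063-43370312 (minus strand). Capitals mark GGACT, a frequent form of the m6A consensus, searched on both strands (as GGACT and AGTCC, which do not overlap here). The bases shown lie before the start, so they are not part of an RNA begun there. Whether a match carries m6A was not tested.
ZBTB45: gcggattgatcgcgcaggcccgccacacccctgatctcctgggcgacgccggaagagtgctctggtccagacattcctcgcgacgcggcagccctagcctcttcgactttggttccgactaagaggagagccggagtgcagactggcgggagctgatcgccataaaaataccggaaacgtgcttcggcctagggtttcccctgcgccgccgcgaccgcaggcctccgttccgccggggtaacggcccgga
ZSCAN29: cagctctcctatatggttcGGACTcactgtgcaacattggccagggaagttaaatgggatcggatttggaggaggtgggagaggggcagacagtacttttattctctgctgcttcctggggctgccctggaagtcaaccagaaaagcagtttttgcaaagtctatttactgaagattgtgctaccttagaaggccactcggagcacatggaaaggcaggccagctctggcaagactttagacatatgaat
The ZBTB45 window was 65.6% G and C with 29 CG pairs and no match, and the ZSCAN29 window was 48.8% G and C with 3 CG pairs and 1 match. Over all protein-coding genes 38.9% of the 22198 windows held a match on either strand and the median window was 62.0% G and C, so a match is common. The region over ZBTB45 was 1465 bp wide and centred at -68 bp from a start site inside the gene body, and that over ZSCAN29 was 1856 bp wide and centred 117 bp downstream of one.

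Some regions near members could not be given to 1 gene with certainty, because the set has no strand. The promoter regions of ZSCAN30 (chromosome 18, positions 35290340 to 35291392) and ZSCAN32 (chromosome 16, positions 3401295 to 3402633) lay wholly outside those genes, centred 594 bp downstream of the start site of ZNF271P and 749 bp downstream of that of ZNF174. In 5 members a region lay within the gene body but was named after another gene. These were ZBTB12 (a promoter region of C2), ZBTB24 (MICAL1), ZBTB25 (a coding exon of AKAP5), ZBTB48 (the transcript end of TAS1R1) and ZSCAN21 (the transcript end of ZNF3). ZBTB12, ZBTB48 and ZSCAN21 had no region under their own name.

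In the SCAN gene cluster on chromosome 6, 9 members lie within 318883 bp (positions 28124609 to 28443491), and 3 held an exonic region. The share was 46.4% over all SCAN genes and 12.9% over all protein-coding genes. Whether this cluster or the neighbours below differ from such shares was not tested. ZKSCAN8 and ZKSCAN4 were hit in coding exons and ZSCAN12 in non-coding exons. ZSCAN9, ZSCAN16 and ZSCAN31 held only regions centred in introns, and ZKSCAN3, ZSCAN23 and ZSCAN26 held none. The 3 neighbours ZSCAN5A, ZSCAN5B and ZSCAN5C on chromosome 19 had no region, while ZSCAN22 and ZBTB45, neighbours further along that chromosome, both held exonic ones.

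Of the members listed for a part in stem cells, the early embryo or telomeres, none held an exonic region, but the lists are too small to set them apart from the 12.9% of all protein-coding genes. The 5 genes of stem cells and the early embryo (upper bound 52.2%) were ZSCAN5B, ZSCAN5C, ZSCAN10, a pluripotency factor of embryonic stem cells, ZSCAN4, expressed when the embryonic genome is first activated, and ZBTB12. The 4 telomere-linked genes (upper bound 60.2%) were ZBTB48, ZBTB40 and ZBTB10, whose proteins bind telomeric repeats or protect telomeres, and ZSCAN4 again. ZBTB10 had 2 intronic regions. Beside the 53.6% of all members, the bound of 52.2% lies just below and that of 60.2% above. These lists too were chosen with earlier results of these data known, so the absence gives no support for a link to their roles.

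In all, 19 members held no region. In the BTB group these 10 were ZBTB7C, ZBTB8A, ZBTB12, ZBTB16, ZBTB17, ZBTB22, ZBTB32, ZBTB40, ZBTB47 and ZBTB48. In the SCAN group these 9 were ZKSCAN3, ZSCAN4, ZSCAN5A, ZSCAN5B, ZSCAN5C, ZSCAN10, ZSCAN21, ZSCAN23 and ZSCAN26. The 7 BTB genes whose regions were all centred outside exons were ZBTB7B, ZBTB8B, ZBTB10, ZBTB11, ZBTB26, ZBTB41 and ZBTB46. The 6 such SCAN genes were ZKSCAN7, ZSCAN1, ZSCAN9, ZSCAN16, ZSCAN31 and ZSCAN32. A region centred outside exons may still overlap one. A region of ZBTB8B centred in intron 1 began at position 32465062, before the gene start at 32465072. The RNA levels of all the genes named here were not in the files.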

How the data were processed

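m6A antibody pull-down and input libraries, 2 of each, came from total RNA of wild-type H1 cells; groups were taken from the sample titles, which do not say whether replicates were separate cultures. The submitters' processing notes name HISAT2 2.2.1, MACS2 2.2.7.1, Trim Galore 0.6.7, HOMER, bedtools 2.30.0 as well as SAMtools 1.6, on hg38. Not given in the sources used here are settings and what was intersected. The authors deposited 9900 region positions, in base pairs, and their HOMER annotation, per the file headers; the score column was 0 throughout and was not used. Of 8585 annotations with a transcript, 8522 matched the RefSeq table of GRCh38.p14. Which transcript HOMER names decides exon numbers and introns.

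Regions were assigned, counted and summarised with Python 3.11.15, pandas 2.3.3 and SciPy 1.17.1, after the naming code was tested on made-up rows. No test across genes was run. Strand came from RefSeq start sites for 59 members and, for 4, from a region's distance to a start site at a gene boundary (within 100 bp). The members and lists were chosen with earlier results of these data known. Every member is named, and other genes only from the lists of BTB zinc finger and SCAN genes under other symbols, or where a region near a member carries their name; the list examples KLHL and BACH are families. Zinc finger counts per protein were planned and not analysed here.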

Additional observations from a re-analysis of the deposited data

How the results depend on the processing

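The difference between SCAN and BTB genes changed sign when only regions of at least 1 kb counted (2.53 percentage points, against -12.1) and kept its sign under the other 7 settings tried, from -20.4 points with ZKSCAN left out to -3.18 with genes under other symbols added. The count of SCAN genes, 13, became 8 when the nearest start site named the gene, 8 of 21 without ZKSCAN, 20 when any overlap with the body counted and 27 of 52 with other symbols added; the last 3 change the genes or the overlap that count. Under the nearest start site, the exonic regions of ZKSCAN5, ZKSCAN8, ZSCAN2, ZSCAN22 and ZSCAN30 took the names of genes that are not members. That of ZKSCAN1 took the name of ZSCAN21, which is thus among the 8 SCAN genes counted. The BTB count stayed within 1.5 times of 24 under all 7 settings tried for it, and the last-exon shares and median widths stayed inside their intervals under theirs. No paired analysis was possible because the files hold 1 intersected set with no value per library, and for the same reason no replicate could be left out. Neither alternative for the finger counts was run. With no depth or RNA level in the files, an absent region has no detection limit.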
